A study of Mus musculus with 8 samples.

Results

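Interferon response genes were examined in liver RNA of ovariectomized (OVX) mice fed with a high fat diet containing white button mushroom powder (HFD+WBM) and of OVX mice fed with the high fat diet alone (HFD). The members were 39 named genes, and a member was kept when the annotation of the array gave it a probe set that names no other gene. This left 35 of the 39 members, among 19938 genes measured in this way. Isg15, Gbp2 and Igtp are read only by probe sets that also name a second gene, and Ifi44 is not among the names of the annotation used, so these 4 members were not analysed as single genes. Liver RNA of 4 HFD+WBM mice and 4 HFD mice, drawn from 8 per diet, was hybridized to Affymetrix Mouse Gene 1.0 ST arrays, 1 array per mouse. All 8 were female C57B1/6J mice whose ovaries had been removed at 7 weeks of age, with the diets begun 1 week after the operation and kept for 3 months, so that both groups share the ovariectomy and the high fat base of the diet. The HFD+WBM diet held the mushroom powder and also less corn starch, so these 2 changes of the diet cannot be told apart. Such mice make estrogen only outside the ovary, and livers of sham-operated mice were not analysed here.

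Interferons are signals by which cells warn each other of viruses and other microbes. Type I interferons (alpha and beta) act through a receptor whose signal brings a factor containing STAT2 and IRF9 to a DNA motif called the interferon-stimulated response element (ISRE), and induce antiviral proteins such as the IFIT, OAS and MX families. Interferon-gamma, made mainly by lymphocytes, acts through another receptor and the gamma-activated site (GAS), and induces the GBP and IRG GTPases that attack microbes inside cells and the immunoproteasome subunits that cut peptides for presentation. Many of these genes answer to both kinds, and in the liver Kupffer cells, the resident macrophages, sense microbial products arriving from the gut.

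Both motifs are found in promoters of members. The sequences that follow were taken from the RefSeq promoter table of the mouse assembly GRCm38.p6 and are written 5′ to 3′ along the strand named. Those of single genes lie upstream of the outermost annotated 5′ end of the gene. The stretch between Psmb9 and Tap1 is bounded by the starts listed in the promoter table instead. Capitals mark ISRE (GAAANNGAAA, on either strand) and GAS (TTCNNNGAA, the same on both strands) matches. Ifit1 and Oas3 are shown as type I genes with an ISRE match and Oasl1, the member with the smallest p, as one without. Irf8 and Irgm1 are shown for GAS and ISRE matches, and the last stretch is the DNA between the divergent starts of Psmb9 (minus strand) and Tap1 (plus strand), which both genes share.
Ifit1 promoter, chr19:34640689-34640888, plus strand: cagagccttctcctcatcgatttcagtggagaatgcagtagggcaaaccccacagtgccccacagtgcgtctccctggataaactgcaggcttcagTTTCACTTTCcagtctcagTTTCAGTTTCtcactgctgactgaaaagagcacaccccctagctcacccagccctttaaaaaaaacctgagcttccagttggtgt
Oas3 promoter, chr5:120777685-120777884, minus strand: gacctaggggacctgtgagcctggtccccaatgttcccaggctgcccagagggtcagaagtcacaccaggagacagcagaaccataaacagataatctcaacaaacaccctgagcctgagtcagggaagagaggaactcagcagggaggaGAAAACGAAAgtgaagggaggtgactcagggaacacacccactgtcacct
Oasl1 promoter, chr5:114922990-114923142, plus strand: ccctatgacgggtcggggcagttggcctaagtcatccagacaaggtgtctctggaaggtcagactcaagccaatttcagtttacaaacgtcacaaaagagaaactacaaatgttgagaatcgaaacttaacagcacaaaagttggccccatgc
Irf8 promoter, chr8:120736158-120736357, plus strand: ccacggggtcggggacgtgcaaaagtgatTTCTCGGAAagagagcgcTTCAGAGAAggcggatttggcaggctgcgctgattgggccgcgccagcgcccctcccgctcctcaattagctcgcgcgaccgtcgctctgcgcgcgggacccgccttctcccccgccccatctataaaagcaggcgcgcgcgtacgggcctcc
Irgm1 promoter, chr11:48871421-48871620, minus strand: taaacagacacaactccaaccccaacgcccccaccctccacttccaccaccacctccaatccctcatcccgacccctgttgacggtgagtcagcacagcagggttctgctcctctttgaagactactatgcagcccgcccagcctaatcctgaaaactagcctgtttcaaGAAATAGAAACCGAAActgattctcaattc
Psmb9-Tap1 shared promoter, chr17:34187331-34187555, plus strand: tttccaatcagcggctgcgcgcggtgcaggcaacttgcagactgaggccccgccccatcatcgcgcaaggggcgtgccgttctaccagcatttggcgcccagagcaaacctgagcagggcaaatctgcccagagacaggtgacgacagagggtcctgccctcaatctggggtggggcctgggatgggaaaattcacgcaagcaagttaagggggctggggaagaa
Ifit1 holds 2 ISRE matches, Oas3 holds 1, Irf8 holds 2 GAS matches, and the 2 ISRE matches of Irgm1 overlap each other. The shares that follow use the whole windows of the table, set around its listed start, which for Oas3 and Oasl1 lies inside the gene rather than at its outermost end. Of the 39 members 29 are in the table, and within 250 bases before to 50 bases after the start 14 of these (48.3%) hold an ISRE match, against 3.99% of all 27025 genes of the table. A GAS match is present in 8 (27.6%), against 9.55% of all genes. These matches describe the letters of the windows and were not measured for binding.

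With HFD+WBM, 6 of the 35 measured members were lower than in OVX mice fed with HFD and 2 were higher, at p under 0.05 from limma before adjustment. The 6 lower members were Oasl1, Dhx58, Ddx58, Ifit2, Psmb9 and Irf8, and the 2 higher members were Oas3 and Trim25. The 6 lower members are 17.1% of those measured, against 6.90% of all genes that were called lower, and the 2 higher members are 5.71%, against 4.85% of all genes. The other 27 members did not pass. The estimates of 32 of the 35 members (91.4%) were below 0, against 49.3% of all genes, and the median log2 fold change (HFD+WBM minus HFD) was -0.29, against 0.01 over all genes. This median was -0.18 when HFD replicate 1 was dropped and -0.40 when HFD replicate 2 was, and it lay inside these limits when any other mouse was dropped. Members of a pathway can share regulators and cells, and their directions are not independent of each other. No member both passed p under 0.05 and changed by 2-fold or more, where 0.762% of all genes did. All 4 HFD+WBM mice lay below all 4 HFD mice for 3 members (5.02% of all genes do so), and above them for 1 member (3.21% of all genes). After Benjamini-Hochberg adjustment over all genes by limma, no gene of the array had a p under 0.05, while 2341 genes had p under 0.05 before adjustment, and the adjusted p of the 8 called members was 0.37 to 0.42. With a prior variance that followed the signal level limma gave 139 genes with an adjusted p under 0.05, 1 of them a member. "Lower" and "higher" below therefore refer to p before adjustment, and an exact permutation test of 4 mice against 4, two-sided, cannot give a p below 0.029.

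**Figure D1:**
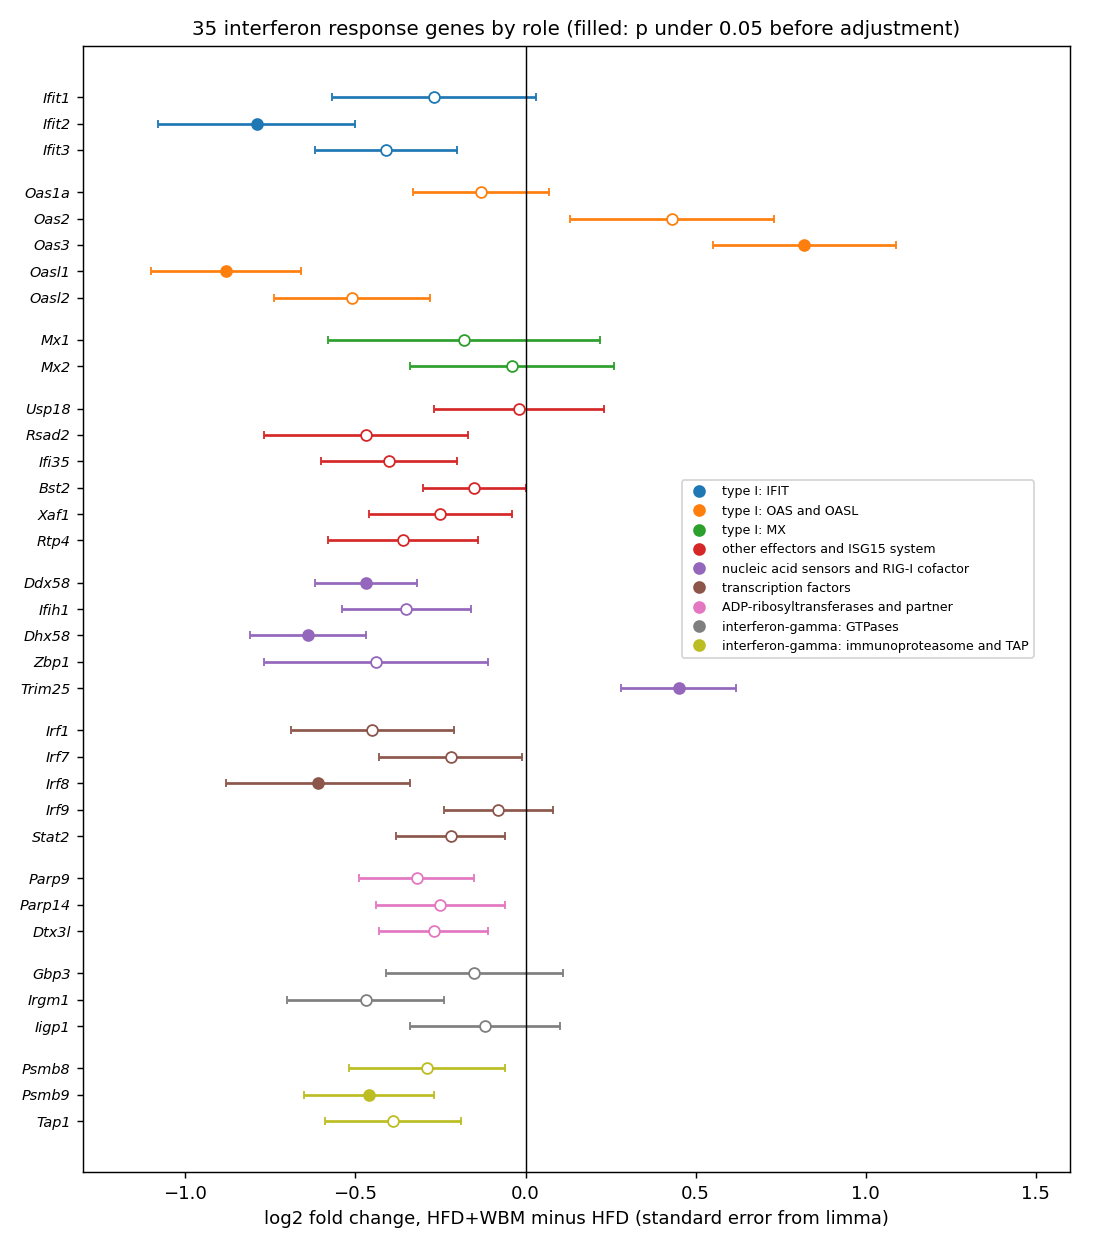
Log2 fold change of each of the 35 measured members, HFD+WBM minus HFD (4 mice each), with bars of 1 standard error from limma and members grouped by role. Filled points have p under 0.05 before adjustment, and 32 of the 35 points lie left of 0, with Oas2, Oas3 and Trim25 to the right.

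The type I genes chosen by name (Ifit, Oas, Oasl and Mx) differed in direction. Of the 10, all measured, 2 were lower (Oasl1 and Ifit2), 1 was higher (Oas3) and 7 did not pass. Over all genes 6.90% were lower and 4.85% were higher. The median log2 fold change of the 10 was -0.22, between -0.88 and 0.82.

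The IFIT proteins bind foreign viral RNA and block its translation. Ifit2 had log2 values of 5.60, 6.14, 5.12 and 6.32 in HFD+WBM replicates 1 to 4, against 6.77, 6.05, 6.72 and 6.82 in HFD replicates 1 to 4. HFD replicates 1, 3 and 4 lay above every HFD+WBM mouse, and HFD replicate 2 lay among the HFD+WBM mice, so the groups overlapped. Ifit2 was 1.73-fold lower with HFD+WBM, with a log2 fold change of -0.79 (standard error 0.29), a limma p before adjustment of 0.021 and an exact permutation p of 0.086. It did not pass when HFD+WBM replicate 1 or 3, or HFD replicate 1 or 4, was left out. Ifit1 had log2 values of 7.05, 7.15, 7.49 and 7.21 in HFD+WBM mice, against 8.35, 6.82, 7.64 and 7.16 in HFD mice. The highest and the lowest of the 8 values were both in HFD mice, and the difference of -0.27 (standard error 0.30, 95% interval -0.94 to 0.40) did not pass. Ifit3 had a log2 fold change of -0.41 (95% interval -0.89 to 0.06), and also did not pass.

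The OAS enzymes make oligoadenylates that switch on the RNA-cutting enzyme RNase L, while the mouse OASL proteins are their relatives. Oasl1, which in mice restrains the translation of Irf7 mRNA, had log2 values of 7.79, 7.00, 7.71 and 7.67 in HFD+WBM mice, against 8.70, 8.02, 8.51 and 8.48 in HFD mice. Every HFD+WBM mouse lay below every HFD mouse, with HFD+WBM replicate 2 the lowest of all. Its means were 7.54 ± 0.37 with HFD+WBM and 8.43 ± 0.29 with HFD (log2, SD, n = 4 each). It was 1.85-fold lower with HFD+WBM, a log2 fold change of -0.88 (standard error 0.22, 95% interval -1.38 to -0.39), with a limma p before adjustment of 0.0029 and an exact permutation p of 0.029. Oasl1 passed with any 1 mouse left out (-1.02 to -0.70). It was the only member whose adjusted p from limma fell under 0.05 in any setting tried, with 0.032 where the prior variance followed the signal level and 0.039 with 64 added before the log. Oasl2, which carries synthetase activity, had a log2 fold change of -0.51 (95% interval -1.03 to 0.01) and did not pass.

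Oas3, the largest OAS enzyme, was higher with HFD+WBM. Its log2 values were 7.29, 7.75, 7.57 and 7.53 in HFD+WBM mice, against 7.08, 7.31, 6.12 and 6.33 in HFD mice. HFD replicate 2 lay just above HFD+WBM replicate 1 and otherwise the HFD mice were below, with replicates 3 and 4 lowest. Oas3 was 1.77-fold higher, a log2 fold change of 0.82 (standard error 0.27, 95% interval 0.22 to 1.43), with a limma p before adjustment of 0.013 and an exact permutation p of 0.057, and it passed with any 1 mouse left out (0.63 to 1.02). Oas2 had an estimate in the same direction that did not pass (0.43, standard error 0.30), and Oas1a had one of -0.13 (standard error 0.20). The OAS and OASL genes thus gave estimates on both sides of 0 within 1 family. Relatives in the Ifit, Oas, Oasl and Gbp families are similar in sequence, and the extent to which probes of 1 gene read another was not tested.

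The MX proteins are dynamin-like GTPases that trap viral ribonucleoproteins, and neither gene passed. Both genes were dim, with mean log2 values of 4.89 for Mx1 and 5.56 for Mx2, above those of 7% and 15% of all genes. Mx2 had log2 values of 4.92, 6.18, 5.77 and 5.30 in HFD+WBM mice, against 6.12, 5.72, 5.12 and 5.36 in HFD mice, a log2 fold change of -0.04 (standard error 0.30). Mx1 spread over 3.67 to 5.80 in HFD+WBM mice and 4.68 to 5.48 in HFD mice, with a log2 fold change of -0.18 and a 95% interval of -1.08 to 0.73 that spans changes in both directions.

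**Figure D2:**
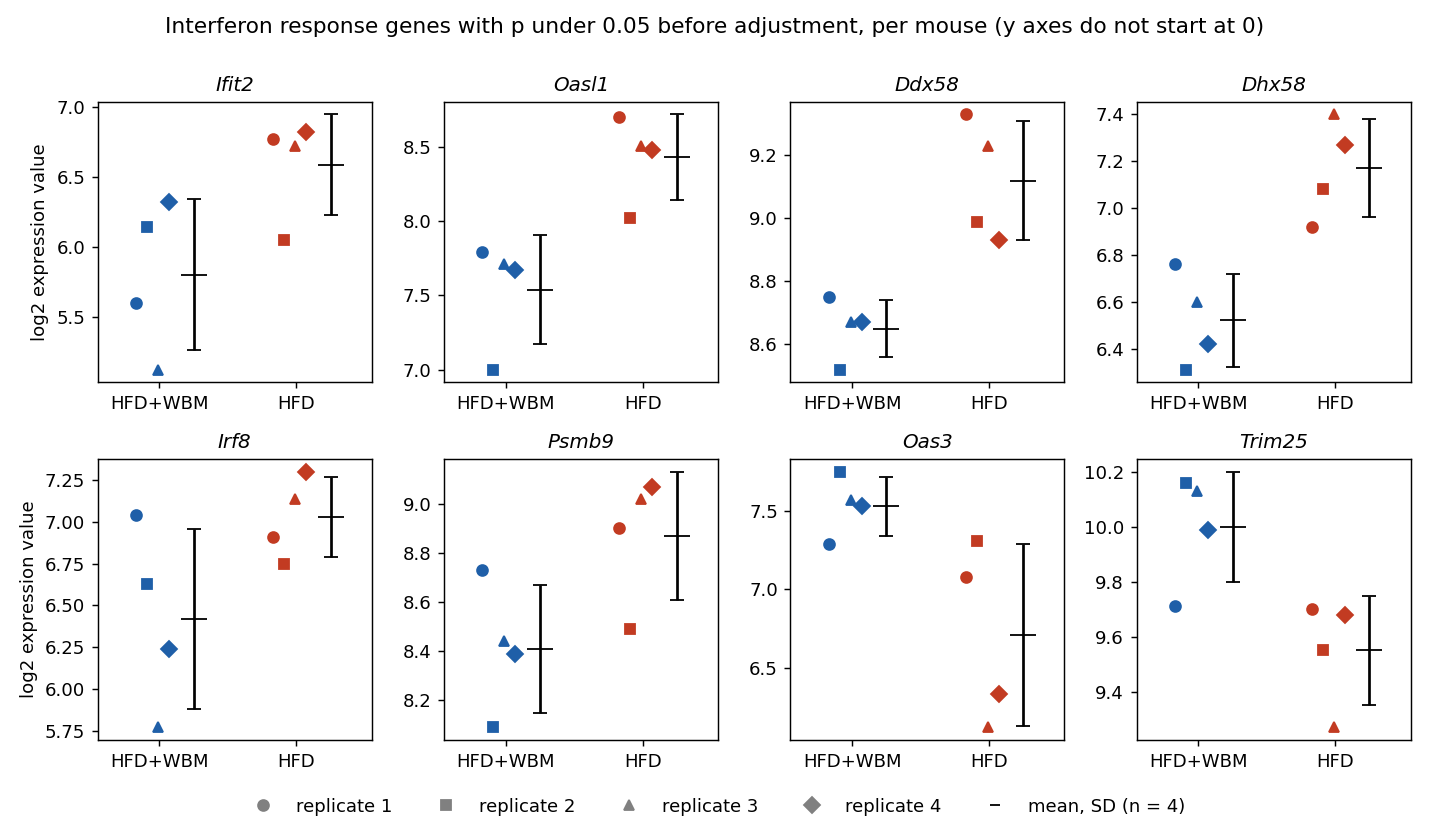
Log2 expression values of the 8 members with p under 0.05 before adjustment, 1 panel per gene, with HFD+WBM mice (blue) left of HFD mice (red), a marker shape per replicate number, and with the mean and SD (n = 4) at the side of each group. The y axes do not start at 0. The groups do not overlap for Oasl1, Ddx58, Dhx58 and Trim25, and they overlap for the other 4.

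Sensors of foreign nucleic acid start the interferon response and are themselves induced by it, and with their cofactor they held 3 of the 8 members called. Of 5 genes of sensing, Ddx58 and Dhx58 were lower with HFD+WBM, Trim25 was higher, and Ifih1 and Zbp1 did not pass. Of all genes 6.90% were lower and 4.85% were higher. Ddx58, which encodes the sensor RIG-I, had log2 values of 8.75, 8.52, 8.67 and 8.67 in HFD+WBM mice, against 9.33, 8.99, 9.23 and 8.93 in HFD mice. All HFD+WBM mice lay below all HFD mice and within a narrow range, with means of 8.65 ± 0.09 with HFD+WBM and 9.12 ± 0.19 with HFD (log2, SD, n = 4 each). The log2 fold change of Ddx58 was -0.47 (standard error 0.15), 1.38-fold lower, with a limma p before adjustment of 0.012 and an exact permutation p of 0.029. Dhx58 encodes LGP2, which tunes the signals of RIG-I and MDA5. It had log2 values of 6.76, 6.31, 6.60 and 6.42 in HFD+WBM mice, against 6.92, 7.08, 7.40 and 7.27 in HFD mice. The groups did not overlap here either, and HFD replicate 1 was the lowest of its group. Dhx58 was 1.56-fold lower, with a log2 fold change of -0.64 (standard error 0.17), a limma p before adjustment of 0.0036 and an exact permutation p of 0.029. Both passed with any 1 mouse left out, between -0.53 and -0.39 for Ddx58 and between -0.73 and -0.57 for Dhx58. Ifih1, which encodes the related sensor MDA5, had a log2 fold change of -0.35 (95% interval -0.77 to 0.07), and Zbp1, a sensor of left-handed nucleic acids, one of -0.44 (95% interval -1.19 to 0.30).

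Trim25, a ubiquitin ligase known as a cofactor of RIG-I, was higher where Ddx58 was lower. Its log2 values were 9.71, 10.16, 10.13 and 9.99 in HFD+WBM mice, against 9.70, 9.55, 9.27 and 9.68 in HFD mice. Every HFD+WBM mouse lay above every HFD mouse, by the narrowest margin between HFD+WBM replicate 1 and HFD replicate 1. The log2 fold change of Trim25 was 0.45 (standard error 0.17), 1.36-fold higher, with a limma p before adjustment of 0.023 and an exact permutation p of 0.029, and it did not pass without HFD+WBM replicate 2 or 3 or without HFD replicate 3.

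Among the other antiviral effectors and the ISG15 system, none of the 6 measured members passed, with log2 fold changes between -0.47 and -0.02 and a median of -0.30. Bst2, also called tetherin, which holds budding viruses at the cell surface, had log2 values of 9.63, 9.54, 9.35 and 9.42 in HFD+WBM mice, against 9.80, 9.34, 9.69 and 9.71 in HFD mice, a difference of -0.15 (standard error 0.15). Rsad2, the antiviral enzyme viperin, had the largest estimate of the group, -0.47 (95% interval -1.15 to 0.20). Usp18, which removes ISG15 from proteins and damps the type I receptor, had the smallest, -0.02 (95% interval -0.59 to 0.55). Ifi35, Xaf1 and Rtp4 lay between them.

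Of the 5 transcription factors, Irf8 was lower with HFD+WBM, where 6.90% of all genes were, and Irf1, Irf7, Irf9 and Stat2 did not pass. Irf8 directs the development of macrophages and dendritic cells and is induced by interferon-gamma. It had log2 values of 7.04, 6.63, 5.77 and 6.24 in HFD+WBM mice, against 6.91, 6.75, 7.14 and 7.30 in HFD mice. HFD+WBM replicate 1 lay within the HFD range and the other 3 HFD+WBM mice lay below it. Irf8 was 1.52-fold lower, with a log2 fold change of -0.61 (standard error 0.27), a limma p before adjustment of 0.047 and an exact permutation p of 0.11, and when 1 mouse was left out it passed only without HFD+WBM replicate 1 or without HFD replicate 2. Irf7, the factor that amplifies type I interferon, had log2 values of 9.35, 9.64, 9.26 and 9.36 in HFD+WBM mice, against 10.05, 9.08, 9.56 and 9.79 in HFD mice. The HFD mice held both the highest and the lowest value, and the difference was -0.22 (standard error 0.21). Stat2 and Irf9, partners in the factor that binds the ISRE, had log2 fold changes of -0.22 (95% interval -0.59 to 0.14) and -0.08 (95% interval -0.44 to 0.28), and Irf1 had one of -0.45 (95% interval -0.99 to 0.08).

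Parp9 and Parp14 belong to the ADP-ribosyltransferase family and Dtx3l is the ubiquitin ligase that pairs with PARP9. None of the 3 passed. Parp9 had log2 values of 9.25, 9.49, 9.38 and 9.52 in HFD+WBM mice, against 10.12, 9.50, 9.72 and 9.57 in HFD mice. Only HFD+WBM replicate 4 and HFD replicate 2 crossed, and the log2 fold change was -0.32 (standard error 0.17, exact permutation p of 0.057). Dtx3l and Parp14 had estimates of -0.27 (standard error 0.16) and -0.25 (standard error 0.19).

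The interferon-gamma genes chosen by name were Gbp2, Gbp3, Irgm1, Igtp, Psmb8 and Psmb9, of which 4 were measured. Psmb9 was lower with HFD+WBM, where 6.90% of all genes were, and Gbp3, Irgm1 and Psmb8 did not pass. The median of the 4 log2 fold changes was -0.37, between -0.47 and -0.15. Psmb9, a catalytic subunit of the immunoproteasome, had log2 values of 8.73, 8.09, 8.44 and 8.39 in HFD+WBM mice, against 8.90, 8.49, 9.02 and 9.07 in HFD mice. HFD replicate 2 lay below HFD+WBM replicate 1 and the groups otherwise kept apart. The log2 fold change of Psmb9 was -0.46 (standard error 0.19), 1.37-fold lower, with a limma p before adjustment of 0.040 and an exact permutation p of 0.057. When 1 mouse was left out Psmb9 passed only without HFD+WBM replicate 1 or without HFD replicate 2. Psmb8, another catalytic subunit, had a log2 fold change of -0.29 (95% interval -0.80 to 0.22). Tap1, which feeds peptides to class I molecules and shares its promoter with Psmb9, had log2 values of 9.22, 8.97, 8.66 and 9.00 in HFD+WBM mice, against 9.66, 8.96, 9.20 and 9.58 in HFD mice, a difference of -0.39 (standard error 0.20) that did not pass.

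The GTPases of this arm sit on the membranes of vacuoles that hold microbes. Irgm1, a regulator of the other IRG proteins, had log2 values of 9.08, 9.03, 8.82 and 8.98 in HFD+WBM mice, against 10.10, 9.03, 9.54 and 9.10 in HFD mice. HFD replicates 1 and 3 stood well above the HFD+WBM mice and HFD replicates 2 and 4 were close to them. The log2 fold change of Irgm1 was -0.47 (standard error 0.23, 95% interval -0.99 to 0.06), which did not pass. Gbp3, a guanylate-binding protein, had an estimate of -0.15 (95% interval -0.73 to 0.44). Iigp1, an effector IRG protein, had log2 values of 10.91, 11.32, 10.86 and 10.95 in HFD+WBM mice, against 11.64, 10.72, 11.22 and 10.94 in HFD mice, a difference of -0.12 (standard error 0.22).

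Side by side, the type I genes had a median of -0.22 with 8 of 10 estimates below 0 and the interferon-gamma genes one of -0.37 with 4 of 4 below 0. The mean log2 value of the 10 type I genes was 6.38, 6.50, 6.44 and 6.52 in HFD+WBM mice, against 7.02, 6.48, 6.51 and 6.61 in HFD mice. For the 4 interferon-gamma genes it was 8.48, 8.44, 8.46 and 8.61 in HFD+WBM mice, against 9.22, 8.37, 8.95 and 8.80 in HFD mice. In both lists HFD replicate 1 was the highest of the 8 mice and HFD replicate 2 lay within or below the range of the HFD+WBM mice. HFD replicates 3 and 4 were above all HFD+WBM mice in the interferon-gamma list, and in the type I list HFD replicate 3 was among them. The difference between the 2 lists was not tested. The interferon-gamma median was the lower of the 2 with any 1 mouse left out. Among only the genes of higher mean the order was reversed (-0.46 for the 4 type I genes tested and -0.37 for interferon-gamma). It was also reversed in the further lists below, with medians of -0.30 (type I, 34 genes) and -0.13 (interferon-gamma, 20 genes). The 10 type I genes were dimmer, with mean log2 values of 4.89 to 7.98, against 8.20 to 9.21 for the 4 interferon-gamma genes.

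**Figure D3:**
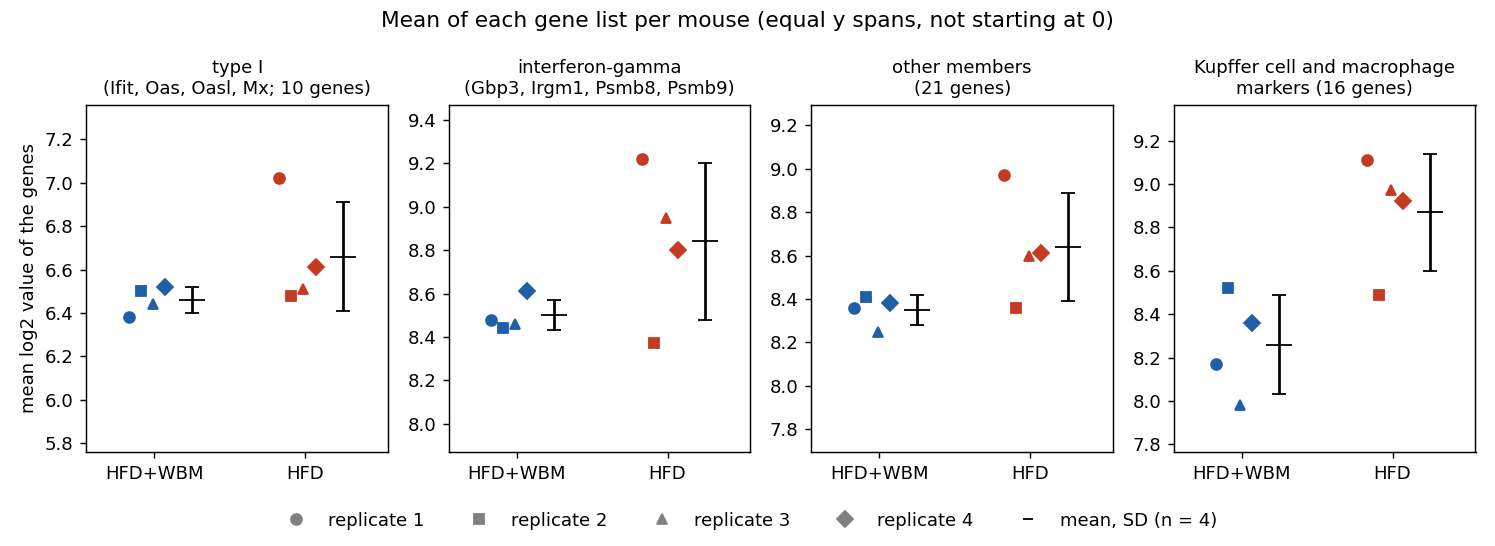
Mean log2 value per mouse of the 10 type I genes, the 4 interferon-gamma genes, the other 21 members and 16 markers of Kupffer cells and other macrophages, with HFD+WBM (blue) left of HFD (red) and with the mean and SD (n = 4) at the side of each group. The panels have equal spans and do not start at 0, and in the first 3 HFD replicate 1 stands highest and HFD replicate 2 lies with the HFD+WBM mice.

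Over all 35 members the mean log2 value was 7.81, 7.87, 7.76 and 7.88 in HFD+WBM mice (7.83 ± 0.05, SD, n = 4), against 8.44, 7.82, 8.05 and 8.06 in HFD mice (8.09 ± 0.26, SD, n = 4). The mean over all genes also spread less with HFD+WBM (7.41 ± 0.03) than with HFD (7.42 ± 0.09, SD, n = 4 each). HFD replicate 1 was the highest of the 8 mice for 20 of the 35 members, against 11.8% of all genes, and lay above all 4 HFD+WBM mice for 28 members, against 23% of all genes. HFD replicate 3 did so for 18 members (27.3% of all genes) and HFD replicate 4 for 19 (25.6% of all genes). HFD replicate 2 did so for 5 members (26.8% of all genes), which were Oasl1, Ddx58, Dhx58, Oas1a and Stat2. It was the lowest of the 8 mice for 7 members, a count like those of several HFD+WBM mice. HFD+WBM replicates 1 to 4 were lowest for 6, 7, 8 and 4 members, HFD replicate 3 for 3, and HFD replicates 1 and 4 for 0. The share of all genes lowest in each mouse was not counted. Gene by gene, the SD was larger with HFD for 23 of the 35 members, against 56.4% of all genes, and for 18 without HFD replicate 1, against 51.9% of all genes, so that the share among members was then close to that of the array as a whole.
The number of members called changed with the mice included. Without HFD replicate 1, 3 members were lower (Oasl1, Ddx58 and Dhx58), 8.57% of them against 6.85% of all genes, a share near the background. Without this mouse 26 of 35 estimates (74.3%) were below 0, against 48.9% of all genes. Without HFD replicate 2, 14 members (40.0%) were lower, against 6.44% of all genes, with Ifit3, Oasl2, Rtp4, Zbp1, Irf1, Irgm1, Psmb8 and Tap1 added to the 6. Without HFD+WBM replicate 3, 3 members were lower, the same Oasl1, Ddx58 and Dhx58 (8.57%, against 4.53% of all genes). Leaving out HFD replicate 3 or 4 gave 4 members (11.4%) each, against 6.42% and 4.98% of all genes. Oas3 was higher in each of these, and Trim25 was not higher without HFD+WBM replicate 2 or 3 or HFD replicate 3. Over all genes the most distant array was that of HFD replicate 3, whose SD around the average of its 7 companions was 0.68, while the others had 0.38 to 0.50.

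**Figure D4:**
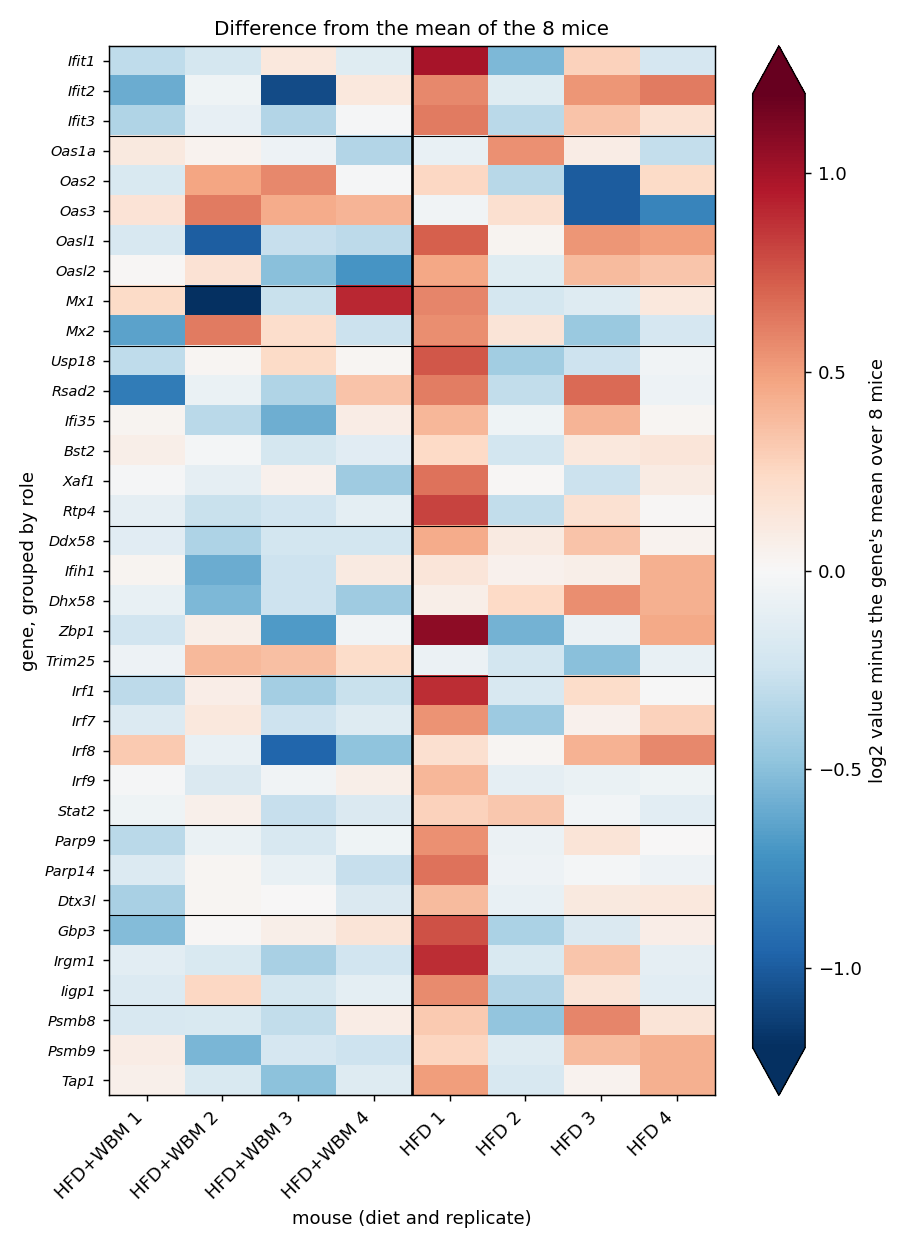
Difference of each member's log2 value from its mean over the 8 mice, genes in rows by role and mice in columns, HFD+WBM left of the vertical line and HFD right of it, red above and blue below the mean. HFD replicate 1 is red in most rows, being highest for 20 of the 35 members, and HFD replicate 2 is blue in many of them.

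The steps of the pathway upstream of these genes were then compared. Of 19 interferon ligand genes 15 were measured, none was lower and 1 was higher, where 4.85% of all genes were. With 1 mouse left out, 1 was higher only without HFD+WBM replicate 4 or HFD replicate 1, and 1 was lower without HFD+WBM replicate 3 or HFD replicate 3. The gene called with all 8 mice was Ifne, an interferon of epithelia, with log2 values of 7.95, 7.72, 7.85 and 7.54 in HFD+WBM mice, against 7.71, 7.28, 6.94 and 7.23 in HFD mice (0.47, standard error 0.19). Ifnb1 and Ifng, the interferon-beta and interferon-gamma genes, had log2 fold changes of 0.28 (standard error 0.22) and 0.07 (standard error 0.28). Their mean log2 values of 6.59 and 5.34 were above those of only 35% and 12% of all genes, and their signal over background is unknown. None of 13 measured genes of the receptors, JAK kinases and regulators of their signal (Irf2, Socs1, Socs3 and Ptpn6) passed in either direction (median -0.06). No STAT gene was among these 13. Of these, 2 were lower without HFD+WBM replicate 2, 1 was lower without HFD replicate 2 and 1 was higher without HFD replicate 1. With 1 mouse left out, 4.53% to 6.85% of all genes were lower and 3.43% to 5.30% were higher. Of the receptor chains, Ifnar1 and Ifnar2 had estimates of -0.09 (standard error 0.18) and -0.03 (standard error 0.15), and Ifngr1 had one of -0.41 (standard error 0.22).

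In the pathway that induces interferon, 5 of 13 genes were lower with HFD+WBM, against 6.90% of all genes. None was higher, against 4.85% of all genes, and the median log2 fold change was -0.34. Tlr7, an endosomal receptor of single-stranded RNA, had log2 values of 5.97, 6.67, 5.78 and 6.42 in HFD+WBM mice, against 6.88, 6.68, 7.27 and 7.05 in HFD mice, and was 1.69-fold lower (-0.76, standard error 0.23). Ikbke, a kinase that activates IRF3 and IRF7, had 7.97, 7.24, 7.36 and 7.61 in HFD+WBM mice, against 8.85, 7.63, 8.40 and 8.69 in HFD mice, a log2 fold change of -0.85 (standard error 0.28). Tlr3, the receptor of double-stranded RNA, was 1.43-fold lower and Sting1, the adaptor of cytosolic DNA sensing, 1.36-fold lower. The groups did not overlap for Tlr7 and Sting1, 2 of the 13, and all HFD+WBM mice lay below all HFD mice for 5.02% of all genes. They overlapped by HFD replicate 2 for Ikbke and Tlr3. The fifth was Ticam1, the adaptor of TLR3. Leaving out 1 mouse left 2 to 5 of the 13 genes lower, against 4.53% to 6.85% of all genes.

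Of 38 further genes known to answer to type I interferon, 34 were measured and 8 were lower with HFD+WBM, against 6.90% of all genes. None was higher, against 4.85% of all genes, and the median was -0.30. Ifi27l2a had log2 values of 6.33, 6.25, 6.22 and 6.11 in HFD+WBM mice, against 7.47, 6.45, 7.06 and 7.41 in HFD mice, and was 1.83-fold lower. Phf11d was 1.47-fold lower, Ly6e, a surface protein that limits virus entry, was 1.43-fold lower, and Tor3a, an ATPase of the endoplasmic reticulum, was 1.57-fold lower. For these 4 genes, and for 7 of the 34 in all, every HFD+WBM mouse lay below every HFD mouse (5.02% of all genes do so). The adjusted p of these 4 from limma was 0.37. Leaving out 1 mouse left 7 to 11 of the 34 lower, against 4.53% to 6.85% of all genes. Of 30 further genes of the interferon-gamma response 20 were measured and none passed in either direction (median -0.13). Without HFD replicate 2, 4 of the 20 were lower, against 6.44% of all genes. Leaving out any other mouse gave 0 to 2 lower, against 4.53% to 6.85% of all genes.

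Most markers of macrophages were lower in the same comparison. Of 17 genes that mark Kupffer cells and other macrophages 16 were measured, and 12 were lower with HFD+WBM, against 6.90% of all genes. None was higher, against 4.85% of all genes, and the median log2 fold change was -0.66. With 1 mouse left out 9 to 14 were lower, against 4.53% to 6.85% of all genes. All 4 HFD+WBM mice lay below all 4 HFD mice for 4 of the 16 (5.02% of all genes do so). Vsig4, a complement receptor of Kupffer cells, had log2 values of 9.88, 10.38, 9.72 and 10.38 in HFD+WBM mice, against 10.63, 10.56, 10.87 and 10.85 in HFD mice. Their summed linear level was 6748 to 9543 in HFD+WBM mice and 9881 to 14261 in HFD mice, ranges that did not overlap, and no marker was at 0 (lowest log2 value 5.03). The mean log2 value of the 16 markers was 8.17, 8.52, 7.98 and 8.36 in HFD+WBM mice, against 9.11, 8.49, 8.97 and 8.92 in HFD mice, so that HFD replicate 1 was highest and HFD replicate 2 lay with the HFD+WBM mice here too. The part of these markers in the values of the interferon response genes was not tested, and in whole liver fewer cells of a type and less RNA per cell cannot be told apart.
Markers of other cells gave smaller counts, where 6.90% of all genes were lower and 4.85% were higher. Of 10 measured dendritic cell markers 1 was lower (Flt3, a growth factor receptor), with a summed level of 1522 to 1958 in HFD+WBM mice and 1929 to 2320 in HFD mice. Bst2, a member described above, is among these 10 and has the highest mean of them (log2 9.56), so the sum includes an interferon response gene. None of 13 lymphocyte and NK cell markers passed (828 to 1147 with HFD+WBM and 774 to 978 with HFD). Of 9 sinusoidal endothelial markers Lyve1 was lower (4992 to 7236 with HFD+WBM and 5620 to 8921 with HFD), all 9 estimates were below 0 and the median was -0.26. Their mean log2 value was 8.88, 9.36, 9.16 and 9.35 in HFD+WBM mice, against 9.04, 9.68, 9.63 and 9.64 in HFD mice, so that HFD replicate 1 was here the lowest of its group, and 3 of the 9 were lower without it (1 to 3 with any 1 mouse left out). With 1 mouse left out 1 to 2 dendritic cell markers were lower, where 4.53% to 6.85% of all genes were. Hepatocytes make up most of the mass of the liver. None of their 9 measured markers passed, with a median of -0.01 and a summed level of 107285 to 114485 in HFD+WBM mice and 103130 to 112690 in HFD mice.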

How the data were processed

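Background correction, normalization and IterPLIER summarization per probe set were run by the authors in Affymetrix Power Tools 1.8.6, who deposited log2 values for 28944 probe sets on 8 arrays. Between-array normalization and any offset before the log were not given in the sources used here. Detection calls were not used here, so dim values carry no background limit.

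Names of probe sets came from the platform annotation (21789 name 1 gene, 1621 several and 5534 none; 21698 of the first were matched by gene number to GRCm38.p6). For a gene with several (among members Irf1 alone) the probe set of highest mean over the 8 arrays was used. Diet was the single term of a linear model fitted to all 19938 genes (lmFit and eBayes, limma 3.58.1, R 4.3.3), with Benjamini-Hochberg adjustment over all of them. Standard errors and 95% intervals are those of limma. Samples were grouped by the submitters' labels, which number the control and the WBM mice. That the RNA came from liver specimens is stated in the methods of the study. Exact permutation tests (scipy 1.17.1) used all divisions of the 8 mice, two-sided, and the number of arrays limits the precision.

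Full values are given for members with p under 0.05 before adjustment and for the member of each role group with the highest mean, and at most 4 genes by smallest p are named in each other list. Where further genes are named (Irgm1, Ticam1, Vsig4 and the estimates of the remaining members), they were chosen after their values were seen. The members and lists were chosen with earlier results of these data known. The alternatives were median centring, quantile normalization, 16 or 64 added before the log, the 50% of genes with the higher mean, the mean of a gene's probe sets, a prior variance following the signal, array weights, an equal-variance t-test, the replicate number as a block, and leaving out each mouse.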

Additional observations from a re-analysis of the deposited data

Results flagged for a closer look

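Of 70 sets of 4 mice (35 members in each diet group), 4 held a mouse that stood apart by Dixon's criterion, and chance alone gives about 1 in 20. Parp14, an ADP-ribosyltransferase gene, had a log2 value of 9.69 in HFD replicate 1, while HFD replicates 2 to 4 had 8.97 to 9.01. Irf9, a DNA-binding partner of STAT2, had 9.53 in the same mouse, while the other 3 HFD mice had 9.02 to 9.08. Both of these were in the mouse that was highest for most members. Ifit2 had 6.05 in HFD replicate 2, while the rest of its group had 6.72 to 6.82, and its log2 fold change was -0.97 without that mouse and -0.79 with it. Oasl1 had 7.00 in HFD+WBM replicate 2, while the rest of its group had 7.67 to 7.79, and its log2 fold change was -0.70 without that mouse and -0.88 with it. The cause of these values was not tested.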

How the results depend on the processing

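Oasl1 and Ddx58 were lower with HFD+WBM under every alternative run, and Dhx58 and Oas3 kept their calls wherever they were tested (they are not among the 50% of genes with the higher mean). The number of members lower, 6, was 12 with 64 added before the log and 12 with a prior variance following the signal (34.3%, against 8.53% and 8.24% of all genes, and 6.90% with neither), and 3 to 14 with 1 mouse left out. Among the 50% of genes with the higher mean, 9 of the 24 members tested were lower (37.5%, against 12.0% of all genes there). The number higher, 2, was 1 among the 50% of genes with the higher mean, where Oas3 was not tested, and 1 to 2 with 1 mouse left out. With the replicate number as a block 5 members were lower and 1 was higher, since Irf8 and Trim25 did not pass. Mice of the same number did not deviate together (correlations -0.12 to -0.02, and no mouse correlated best with its own number). The values thus gave no sign of a pairing by number. With 4 mice per group this check cannot exclude a pairing in feeding or handling. The median of the type I genes was -0.46 among the 50% of genes with the higher mean, where 4 of the 10 were tested, and -0.38 to -0.09 with 1 mouse left out. The median of the interferon-gamma genes kept its sign, between -0.54 and -0.24 with 1 mouse left out. Leaving out 1 mouse moved the log2 fold change of Ifit1 between -0.49 and 0.02, that of Mx2 between -0.25 and 0.17 and that of Iigp1 between -0.26 and 0.05, none of which was called. Irf8 was not called by the equal-variance t-test or with array weights, Ifit2 by the t-test, and Psmb9 with median centring, quantile normalization or array weights. The cause of these changes was not tested. Under a prior variance following the signal, limma gave 139 genes with an adjusted p under 0.05 and the equal-variance t-test gave 0. Signal over background is unknown for all members.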

Other observations

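The 3 listed members without a probe set of their own were read together with a second gene, and their values cannot be assigned to either. The probe set of Isg15 and Gm9706 had log2 values of 5.97, 5.43, 5.82 and 5.77 in HFD+WBM mice, against 6.84, 5.65, 6.44 and 6.24 in HFD mice. That of Gbp2 and Gbp2b had 7.05, 7.26, 6.26 and 6.99 in HFD+WBM mice, against 8.19, 6.96, 7.16 and 7.51 in HFD mice. That of Irgm2 and Igtp had 9.67, 9.89, 9.31 and 9.46 in HFD+WBM mice, against 10.81, 9.29, 9.75 and 9.42 in HFD mice. HFD replicate 1 was the highest of the 8 mice in all 3, and the groups overlapped in each. The unused second probe set of Irf1 had a difference of -0.21 between the means (HFD+WBM minus HFD), and the one used had -0.45.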
